A study of Mus musculus with 4 samples.

Results

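Protein kinase A (PKA) is described here through the 9 genes that encode its catalytic subunits (Prkaca and Prkacb), its regulatory subunits (Prkar1a, Prkar1b, Prkar2a and Prkar2b) and its small inhibitors (Pkia, Pkib and Pkig). The genes were taken by symbol from the deposited count table, which holds 28193 genes, and all 9 members were found once each. The RNA came from fosTRAP-seq, in which an HA antibody pulls down tagged ribosomes from neurons that expressed c-Fos during a labeling window, and the RNA on those ribosomes is sequenced. All mice were male C57BL/6J animals of 3 to 5 months that carried, in dorsal CA1, an AAV with a c-Fos promoter driving tamoxifen-dependent Cre and an AAV with Cre-dependent HA-tagged Rpl22. All of them were injected with 4-hydroxytamoxifen during 5 h of sleep deprivation on day 0, which tagged the neurons active at that time. On day 7 the sleep deprived (SD) group was kept awake by gentle handling for 5 h again, the non-sleep deprived (NSD) group was left undisturbed, and the CA1 of both was collected at ZT 5. The controls therefore also had the first deprivation, the viruses and the drug. Each library holds the pooled CA1 tissue of 5 mice. With 2 libraries in a group, each standard deviation (s.d.) reflects the spread between pools and not between animals. Each p value likewise rests on pools and not on animals, and those of edgeR and DESeq2, used below, also draw on the spread of other genes. The labels call the mice cFos-Cre:Ribotag and the tissue dorsal hippocampus, and the description with viral vectors and microdissected CA1 is that of the methods.

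PKA is the main receptor of cyclic AMP in neurons. At rest a pair of regulatory subunits holds a pair of catalytic subunits inactive, and cAMP that binds the regulatory subunits frees the kinase. Type I regulatory subunits (Prkar1a, Prkar1b) are largely soluble, while type II subunits (Prkar2a, Prkar2b) are held by anchoring proteins at dendrites, synapses and organelles. PKI proteins bind the free catalytic subunit, block its active site and carry it out of the nucleus. In the hippocampus PKA is known for its part in long-lasting potentiation and in memory storage.

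The regulatory and inhibitor proteins all reach the active site through a short stretch with a pair of arginines, and their coding sequences are shown because this stretch sets apart the types of subunit whose values follow. Each line gives 30 coding bases of the Ensembl canonical transcript in GENCODE, 5′ to 3′ on the coding strand, and the capitals mark the codon at the place where a substrate would take up phosphate.
Prkar1a: cgacggcgccgaggtGCTatcagtgctgaa
Prkar1b: cgtcgccggcggggcGGTgtgagtgctgaa
Prkar2a: tttactagacgagtaTCAgtctgtgcagaa
Prkar2b: ttcacaaggcgtgccTCGgtctgtgcagaa
Pkia: acaggtagaagaaatGCAatacatgatatc
Pkib: gcaggccgccgcaatGCCttacccgacatc
Pkig: acaggccgtcggaatGCAgtccctgacatc
The capitals encode serine in Prkar2a and Prkar2b, so that type II subunits are themselves phosphorylated there, while those in Prkar1a, Pkia, Pkib and Pkig encode alanine and those in Prkar1b glycine, residues that cannot take up phosphate. The stretches lie in coding exons on GRCm39, at chr11:109550927-109550956 for Prkar1a, chr5:139094278-139094307 for Prkar1b, chr3:7502473-7502502 for Pkia, chr10:57604263-57604292 for Pkib, chr2:163563119-163563148 for Pkig. In the type II genes the stretch crosses an exon junction, with its outer bases at chr9:108591489-108594072 for Prkar2a and chr12:32043772-32088639 for Prkar2b. Over their whole coding sequences Prkaca and Prkacb were identical at 80.2% of 1053 aligned bases, Prkar1a and Prkar1b at 75.2% of 1139, Prkar2a and Prkar2b at 72.6% of 1190, and Pkia was identical to Pkib at 66.2% of 225 and to Pkig at 64.9% of 228. The longest identical run between transcripts of such a pair was 36 bases, in Prkar2a and Prkar2b, and no run of 100 bases from the canonical transcript of a member occurred, on the same strand, in the GENCODE transcripts of another gene.

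The library totals ran from 153511705 to 195910235 estimated counts, and the least abundant member, Pkib, had 348 to 458 counts per library. The s.d. of each group rests on 2 pools, and the standard error of the log2 fold change was 0.20 for Pkib and 0.065 to 0.098 for the other members. All 7 markers fixed for CA1 pyramidal neurons were counted, and their summed level in CPM, the counts of a gene scaled to a common library total, was 6204 and 6490 for NSD and 5941 and 6400 for SD. Markers of interneurons summed to 719 to 810 CPM, of astrocytes to 436 to 490 and of oligodendrocytes to 1539 to 1862, and those of endothelial cells summed to 37.0 and 51.3 in NSD and 30.3 and 20.1 in SD. Of the 7 CA1 markers and the 6 endothelial markers, 0 were called by the edgeR test used below for the members, although 4 and 5 had an unadjusted p under 0.05 in it. With DESeq2 4 and 4 were called lower, and 4 and 5 were when the batch was added to the edgeR test as a block. None of the markers in these lists or in those of microglia (55.3 to 72.8 CPM) and dentate granule cells (118 and 112 CPM in NSD, 94.9 and 100.4 in SD) was at 0 in all libraries. In these other lists 0 markers were called by edgeR, and 1 marker of each list but that of microglia, which had 0, had an unadjusted p under 0.05 in it. However, 1 of 4 dentate markers was called lower and 1 of 6 oligodendrocyte markers higher, both with DESeq2 and with the block. With the block 1 of 6 interneuron markers was called lower, while the interneuron marker with an unadjusted p under 0.05 in edgeR was higher. Transcripts of the Ensembl class TEC, which await experimental support, took 0.273% and 0.210% of the counts in NSD libraries 1 and 2 and 0.157% and 0.118% in SD libraries 1 and 2. The part of these differences in the results that follow was not tested. In RNA pulled down from pooled tissue, fewer cells of a type, less RNA per cell and a different carry-over of untagged RNA cannot be told apart.

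The question put to the members was whether renewed sleep deprivation changed the ribosome-bound RNA of PKA genes in neurons tagged by the earlier one. All 9 members passed the filter of more than 5 counts in every library. A gene counted as called where edgeR's quasi-likelihood test gave an adjusted p below 0.05 together with a fold change above 1.2. By this rule 0 of the 9 members were called, where 0.77% of the 22338 genes tested were called higher in SD and 2.33% lower. The 3 lowest p values belonged to Prkar2a, Pkia and Prkacb, which were the 3 members at an unadjusted p under 0.05, all higher in SD, as 6.86% of all genes were. With DESeq2 Prkar2a and Pkia were called (2 of 9, against 2.99% of all genes called higher), and with the batch number of the labels as a block in the edgeR test Prkar2a alone was (1 of 9, against 2.99%). The study, with DESeq2 at the same thresholds, names Pkia among its upregulated genes. All 9 estimates were above 0, with a median log2 fold change of 0.10, while 47.2% of all genes tested and 54.2% of the protein-coding genes were above 0. In the ranking of all genes tested by this estimate, Prkar2a lay at percentile 90.9, Pkia at 89.9, Prkacb at 87.5 and the other members between 60.4 and 74.6. The SD libraries were both higher than the NSD libraries for 6 members, an order found in 22.0% of all genes and 26.5% of the protein-coding genes, and the groups overlapped for the other 3.

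**Figure D1:**
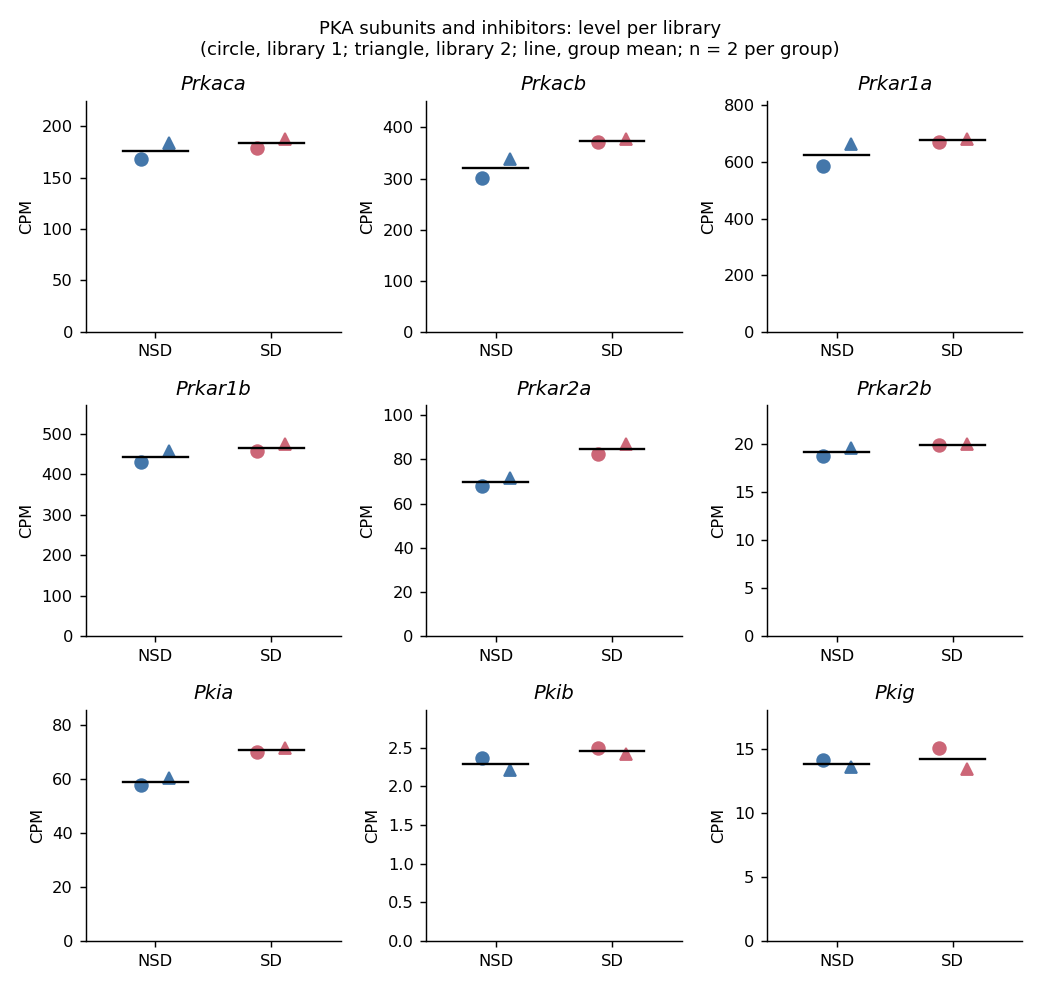
Level of each member in CPM (y axes from 0) in the 2 NSD and 2 SD libraries, with circles for library 1, triangles for library 2 and lines for the group means. The groups are separate for Prkacb, Prkar1a, Prkar2a, Prkar2b, Pkia and Pkib and overlap for Prkaca, Prkar1b and Pkig.

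The catalytic subunits carry the kinase activity. Prkaca (ENSMUSG00000005469, chromosome 8 from 84699622 to 84723072) stood at 168 and 183 CPM in NSD libraries 1 and 2 and at 179 and 187 in SD libraries 1 and 2. Its groups overlapped, and the log2 fold change was 0.06 (standard error 0.08, edgeR adjusted p = 0.763), with a 95% interval of -0.12 to 0.24. Leaving out NSD library 1 gave 0.028 and leaving out NSD library 2 gave 0.12. Prkacb (ENSMUSG00000005034, chromosome 3 from 146435329 to 146518745) had 301 and 339 CPM in NSD and 371 and 377 in SD. Here the SD values were both the higher ones, and the gap between the NSD libraries was wider than that between the SD libraries. The mean of Prkacb was 319.8 ± 26.7 CPM in NSD (s.d., n = 2) and 374 ± 3.92 in SD (s.d., n = 2). Its estimate on the log2 scale was 0.23 with a standard error of 0.09 (edgeR adjusted p = 0.204). With the batch block the edgeR adjusted p of Prkacb was 0.0448 and with DESeq2 the adjusted p was 0.0252, an adjusted p below 0.05 and a higher SD level being found in 4.95% and 3.94% of all genes by these fits. The log2 fold change of 0.23 in the blocked fit and 0.25 in DESeq2, however, was under the 0.26 that a fold change of 1.2 requires. The estimate of Prkacb moved with a single pool, from 0.17 without NSD library 1 to 0.31 without NSD library 2.

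Of the type I regulatory subunits, Prkar1a is made in nearly every tissue and Prkar1b mostly in neurons. Prkar1a (ENSMUSG00000020612, chromosome 11 from 109540231 to 109560482) was at 584 and 662 CPM in NSD and 671 and 679.6 in SD. The SD libraries were the higher ones, but NSD library 2 lay closer to them than to NSD library 1. The log2 fold change of Prkar1a was 0.12 (95% interval -0.10 to 0.34, edgeR adjusted p = 0.592), and leaving out NSD library 1 gave 0.06 while leaving out NSD library 2 gave 0.21. Prkar1b (ENSMUSG00000025855, chromosome 5 from 139003061 to 139135756) had 431 and 458 CPM in NSD and 457 and 476 in SD, with NSD library 2 just above SD library 1. Its log2 fold change was 0.07 (95% interval -0.12 to 0.26, edgeR adjusted p = 0.739), and it was 0.11 with NSD library 2 left out. Prkar1b shares 301 exon bases with Dnaaf5 on the other strand and 500 with Gm15672 on its own, whose counts were 1.18% and 0.372% of its own, and Prkar1a shares 59 with Fam20a on the other strand (1.04%). Whether the counting separated the strands was not stated, so reads from bases shared across strands cannot be assigned here. Strand would not separate those shared with Gm15672. Prkaca shares 62 exon bases with Smim46 on its own strand and 243 with Gm56840 on the other. Prkacb shares 85 with Gm36521 and Prkar1b 259 with Gm72716, both on the other strand. Smim46, Gm56840, Gm36521 and Gm72716 are absent from the deposited counts.

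Prkar2a, the type II subunit found in most tissues, had the largest estimate of the 9. Prkar2a (ENSMUSG00000032601, chromosome 9 from 108566513 to 108627635) was at 68.0 and 71.7 CPM in NSD and at 82.3 and 87.0 in SD. The gap between the groups was wider than the gap within either of them. The mean went from 69.8 ± 2.62 CPM (s.d., n = 2) to 84.7 ± 3.29 (s.d., n = 2), a 1.21-fold difference with a 95% interval of 1.09 to 1.35. The log2 fold change was 0.28 (standard error 0.07, edgeR adjusted p = 0.0665), so the fold change passed its threshold while the adjusted p did not. With the block the same difference had an edgeR adjusted p of 0.00415, and DESeq2 gave a log2 fold change of 0.30 and an adjusted p of 0.00407. Within batch 1 the log2 difference of Prkar2a was 0.28 and within batch 2 it was 0.28, and with each library left out in turn it ran from 0.25 to 0.32.

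Prkar2b, the type II subunit that is most abundant in brain and fat, was much lower in these libraries. Prkar2b (ENSMUSG00000002997, chromosome 12 from 32008475 to 32111295) had 18.8 and 19.6 CPM in NSD and 19.9 and 20.02 in SD. The SD libraries lay above the NSD libraries by less than the gap within NSD. The log2 fold change of Prkar2b was 0.06 (95% interval -0.13 to 0.24, edgeR adjusted p = 0.783), or 0.087 with NSD library 2 left out. Set side by side after their values were seen, the CPM of Prkar2a was 3.62 and 3.66 times that of Prkar2b in NSD and 4.15 and 4.35 times in SD, a difference of 0.22 on the log2 scale that was not tested.

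The inhibitors differed from each other in level more than in their estimates. Pkia (ENSMUSG00000027499, chromosome 3 from 7431729 to 7510426), the first PKI described and the main form in brain, was at 57.8 and 60.3 CPM in NSD and 70.2 and 71.3 in SD. The libraries of each group were close to each other and the groups did not overlap. The mean of Pkia was 59.0 ± 1.76 CPM in NSD (s.d., n = 2) and 70.7 ± 0.838 in SD (s.d., n = 2), a 1.199-fold difference with a 95% interval of 1.08 to 1.33 (edgeR adjusted p = 0.0689). Within batch 1 the log2 difference was 0.28 and within batch 2 it was 0.24. With the block Pkia had an edgeR adjusted p of 0.00720, yet its log2 fold change of 0.26 fell just short of the fold change threshold.

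Pkib and Pkig, the other PKI genes, had lower CPM than Pkia. Pkib (ENSMUSG00000019876, chromosome 10 from 57508077 to 57617208) had 2.36 and 2.22 CPM in NSD and 2.49 and 2.42 in SD. All 4 libraries lay close together, and the interval of the log2 fold change, 0.10, was the widest of the members at -0.35 to 0.55 (edgeR adjusted p = 0.853). With a library left out in turn the estimate of Pkib ran from 0.055 without NSD library 2 to 0.18 without NSD library 1. Pkig (ENSMUSG00000035268, chromosome 2 from 163500306 to 163568078) had 14.1 and 13.6 CPM in NSD and 15.1 and 13.4 in SD, so that the SD libraries were both the highest and the lowest of the 4. Its log2 fold change was 0.04 (95% interval -0.19 to 0.26, edgeR adjusted p = 0.892), and without SD library 1 it was -0.05. Pkig shares 1069 exon bases with Ada and 37 with Gm16316, both on the other strand, whose counts were 1.51% and 3.82% of its own. The CPM of Pkia was 4.09 and 4.43 times that of Pkig in NSD and 4.66 and 5.32 times in SD, a log2 difference of 0.23 that was likewise set out after the values were seen and not tested.

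**Figure D2:**
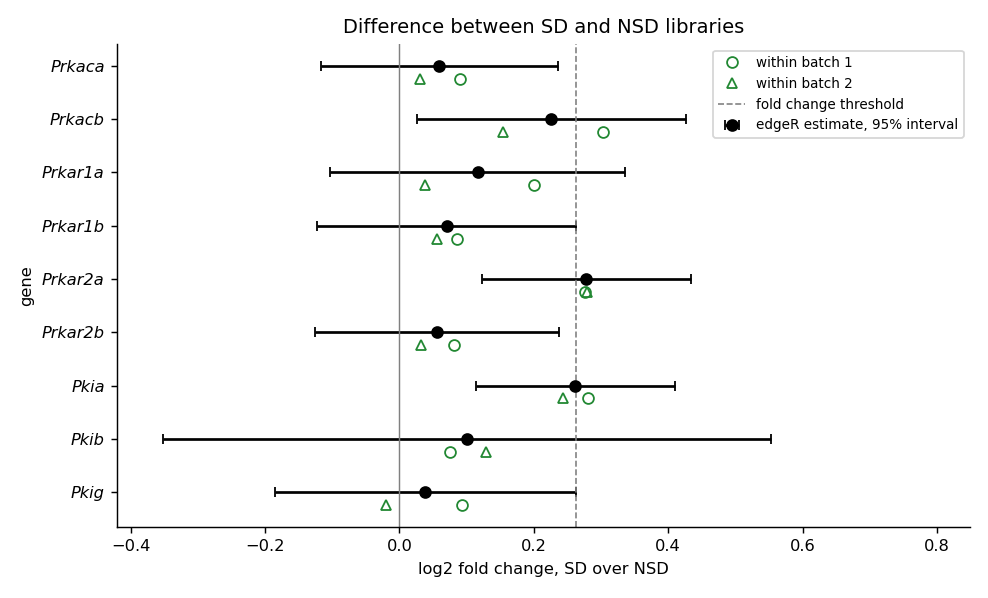
Log2 fold change of SD over NSD for each member (x axis), with the edgeR estimate and its 95% interval in black, the difference within batch 1 (circle) and batch 2 (triangle) in green, and the fold change threshold as a dashed line. The intervals of Prkacb, Prkar2a and Pkia lie above 0, and both batches give Prkar2a 0.28.

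Levels of different genes were compared as CPM per kilobase, using the union of the exons of each gene in GENCODE as its length. In that order Prkar1a came first with a mean of 66.6 CPM per kilobase and a range of 59.9 to 69.7 over the 4 libraries. Prkaca followed at 63.8 (59.8 to 66.5) and could not be separated from Prkar1a, since their ranges overlap. Below them came Prkar1b at 53.6, Prkacb at 38.4, Pkia at 11.5, Prkar2a at 7.17, Prkar2b at 3.48, Pkig at 1.95 and Pkib at 0.199, each with a range clear of the next. The type I subunits and the catalytic subunits thus stood well above the type II subunits and the inhibitors.

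The length used changed the order within these groups. With the longest transcript of each gene Prkar1b, at 116 CPM per kilobase, and Prkar1a, at 109, had overlapping ranges, as did Prkaca and Prkacb at 76.6 and 76.2. With the Ensembl canonical transcript, a length tried after the data were seen, Prkar1a and Prkar1b led at 170.0 and 160 with overlapping ranges, and Pkia, Prkar2a and Pkig, at 16.6, 15.5 and 13.8, overlapped with each other. Pkib was last under all 3 lengths, at 0.199 to 0.432 CPM per kilobase.

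**Figure D3:**
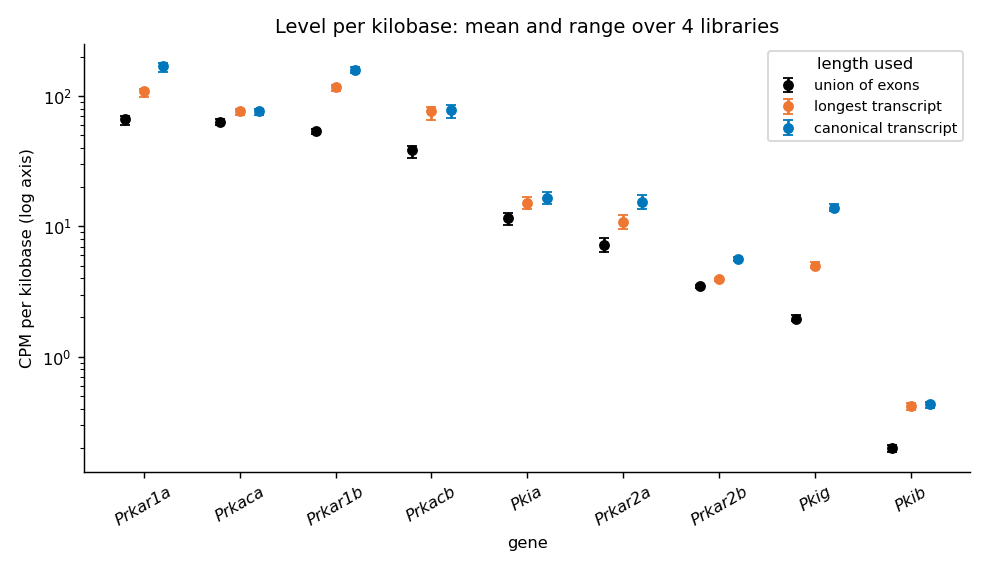
Level of each member in CPM per kilobase on a log axis, as the mean (point) and the range over the 4 libraries (bar), with 3 choices of gene length. The subunits Prkar1a, Prkaca, Prkar1b and Prkacb lie between 33.3 and 178, and Pkib is below 0.453 under each length.

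Because a free catalytic subunit is what the regulatory subunits and the inhibitors act on, the balance between the groups was computed within each library from summed CPM per kilobase. With 2 libraries against 2 the smallest p of an exact two-sided permutation test is 0.333, so none of these ratios could pass the threshold. The regulatory to catalytic ratio was 1.29 and 1.28 in NSD and 1.28 and 1.27 in SD, a log2 difference of -0.02 (exact permutation p = 0.333). The SD libraries were both below the NSD libraries, and they were so with the longest transcript and with the canonical one (log2 difference -0.042 for both) and without length correction (-0.061). The size of this ratio depends on the length, with 2.32 and 2.29 in NSD and 2.24 and 2.23 in SD for the canonical transcripts. The ratio of inhibitors to catalytic subunits was 0.133 and 0.124 in NSD and 0.141 and 0.136 in SD, a log2 difference of 0.10 (exact permutation p = 0.333). This difference was 0.05 when NSD library 2 was left out and 0.15 when NSD library 1 was. It was 0.06 with the longest transcript, 0.014 with the canonical one and 0.047 without length correction, and under these settings the groups overlapped.

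Ratios within the subunit types were also computed. The ratio of Prkacb to Prkaca was 0.558 and 0.576 in NSD and 0.646 and 0.627 in SD. With the longest transcripts it was 0.920 and 0.950 in NSD and 1.07 and 1.04 in SD, and without length correction 1.79 to 2.07, so which of the genes is higher depends on the length. The gap between the groups was wider than that within either group, with a log2 difference of 0.17 between the groups, 0.21 within batch 1 and 0.12 within batch 2 (exact permutation p = 0.333 for the groups). The ratio of type II to type I regulatory subunits was 0.0872 and 0.0832 in NSD and 0.0911 and 0.0925 in SD, a log2 difference of 0.11 (exact permutation p = 0.333) that was 0.06 within batch 1 and 0.15 within batch 2. Of the inhibitor RNA per kilobase, Pkia made up 82.6% and 83.7% in NSD and 84.4% and 86.0% in SD (exact permutation p = 0.333). With the canonical transcripts the share of Pkia was 50.8% and 52.8% in NSD and 54.0% and 57.2% in SD, with the SD libraries again on the higher side.

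**Figure D4:**
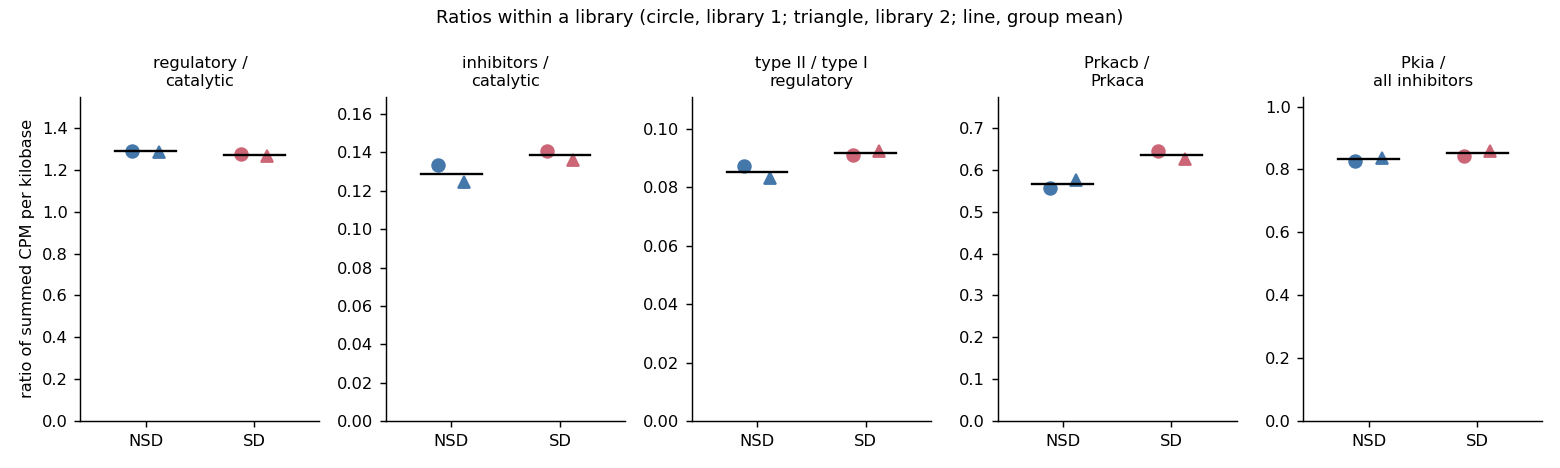
Ratios of summed CPM per kilobase, with the union of exons as the length, within each library (y axes from 0), with circles for library 1, triangles for library 2 and lines for the group means. The ratio of Prkacb to Prkaca is 0.558 and 0.576 in NSD and 0.646 and 0.627 in SD, and the ratio of regulatory to catalytic subunits stays between 1.27 and 1.29.

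The rest of the cAMP and PKA pathway was described with 83 genes listed by role, of which 81 were tested. Of these 81 genes, edgeR called 2 higher and 2 lower, DESeq2 11 and 3, and edgeR with the block 9 and 3. Of all genes tested, DESeq2 called 5.79% lower and edgeR with the block 8.47%. Their median log2 fold change was 0.07, beside -0.02 for all genes tested and 0.02 for the protein-coding genes. Among the 12 genes that supply cAMP (stimulatory G alpha subunits and adenylyl cyclases) and the 16 phosphodiesterases that remove it, 0 were called by edgeR without the block. Both lists were split evenly around 0, with 6 and 8 genes above it. In the edgeR test 5 of the 12 (4 higher and 1 lower) and 2 of the 16 (both higher) had an unadjusted p under 0.05, as 19.1% of all genes had in either direction. With DESeq2 2 and 1 of them were called, and with the block 2 and 1, all higher.

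The called genes came from the lists of anchoring proteins and of substrates. Of 16 genes tested in the list of anchoring proteins, 1 was called higher and 2 lower, against 3 and 2 with DESeq2 and 2 and 2 with the block. Akap12, a scaffold that brings PKA to the plasma membrane and to adrenergic receptors, had 22.5 and 22.8 CPM in NSD and 35.1 and 34.5 in SD (log2 difference 0.62, edgeR adjusted p = 0.0328). Akap8l and Akap8 encode nuclear proteins. Akap8l had 47.6 and 35.7 CPM in NSD and 23.2 and 19.0 in SD, and Akap8 had 49.8 and 44.8 in NSD and 37.3 and 37.1 in SD. They fell by 0.98 and 0.35 on the log2 scale (edgeR adjusted p = 0.0328 and 0.0487). Of the 25 genes of PKA substrates 1 was called, Sik1, a kinase that PKA restrains and that acts on the coactivators of CREB, with 21.8 and 21.7 CPM in NSD and 31.7 and 33.3 in SD (log2 fold change 0.58, edgeR adjusted p = 0.0328). With DESeq2 3 of the substrates were called higher and 1 lower, with the block 2 and 1, and 8 had an unadjusted p under 0.05 in the edgeR test. Of the 9 other cAMP effectors, among them Epac proteins and HCN channels, 7 were above 0. In the edgeR test 0 were called and 3 had an unadjusted p under 0.05. With DESeq2 and with the block 1 was called higher. Prkx, a kinase closely related to the catalytic subunits, had 12.4 and 10.3 CPM in NSD and 12.4 and 11.6 in SD, with overlapping groups (log2 fold change 0.08, edgeR adjusted p = 0.779). The estimate of Prkx was -0.042 with NSD library 2 left out and 0.25 with NSD library 1 left out. In the list of 3 genes that holds Prkx and other controllers of PKA, 0 were called by edgeR, 1 had an unadjusted p under 0.05 in it, and 1 was called higher with the block and with DESeq2. That gene was Gpr161, a receptor that anchors PKA at the cilium, named here after its values were seen. Gpr161 had 258 and 322 CPM in NSD and 397 and 415 in SD (log2 fold change 0.49, edgeR adjusted p = 0.0554, 0.000915 with the block and 5.33e-05 with DESeq2).

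**Figure D5:**
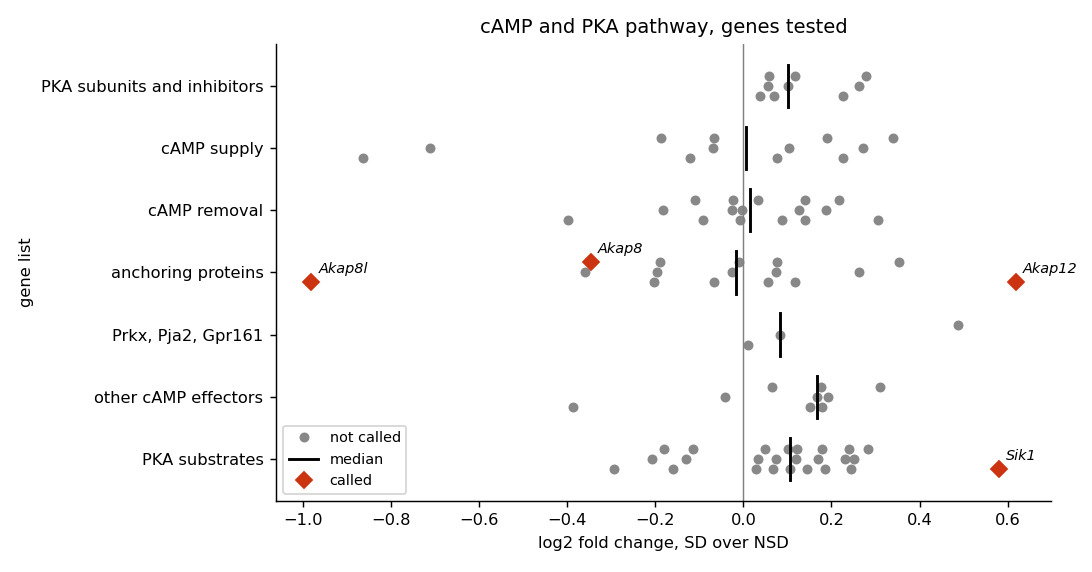
Log2 fold change of SD over NSD (x axis) for the members and for the 81 tested genes of the pathway lists, 1 point per gene, with diamonds for genes called by edgeR and a black line for the median of each list. The 9 members all lie above 0 and none is called, and the called genes are Akap12, Sik1, Akap8 and Akap8l.

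Since CREB, a target of PKA, binds the cAMP response element, the promoters of the members were searched for it in RefSeq sequences of GRCm38.p6, 250 bases before to 50 after each start. These matched 8 of the 9 members, all but Pkia, with 24 windows. The full element TGACGTCA was found in 2 windows, both of Prkar1a and overlapping each other, where 1.79% of the 32851 promoters in the table hold it. The letters TGACG on either strand, which the full element contains on both, were found in 8 of the 24 windows, in Prkaca, Prkacb, Prkar1a, Prkar1b, Prkar2a and Pkig, against 20.8% of all promoters. The window of Prkar1a with the full element, at chr11:109650699-109650998 on the plus strand, and that of Prkar2a, the member with the largest estimate, at chr9:108691893-108692192 on the plus strand, are shown with these letters in capitals.
Prkar1a: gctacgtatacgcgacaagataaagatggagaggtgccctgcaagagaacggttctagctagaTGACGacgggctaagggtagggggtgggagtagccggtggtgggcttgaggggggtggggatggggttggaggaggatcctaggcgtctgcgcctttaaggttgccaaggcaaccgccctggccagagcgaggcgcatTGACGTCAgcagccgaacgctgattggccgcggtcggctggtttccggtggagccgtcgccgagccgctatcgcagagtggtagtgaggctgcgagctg
Prkar2a: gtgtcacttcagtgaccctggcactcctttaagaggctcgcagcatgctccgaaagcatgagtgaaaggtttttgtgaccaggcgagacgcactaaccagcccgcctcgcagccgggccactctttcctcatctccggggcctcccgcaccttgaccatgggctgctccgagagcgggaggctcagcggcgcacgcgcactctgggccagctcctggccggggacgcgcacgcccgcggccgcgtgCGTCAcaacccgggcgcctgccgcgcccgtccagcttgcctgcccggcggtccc
The window of Prkar1a holds the full element and 1 more match of the shorter letters, and that of Prkar2a holds a single match of the shorter letters, on the minus strand. A match of letters is a description of the sequence, and binding was not measured here.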

How the data were processed

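fosTRAP-seq libraries of 2 NSD and 2 SD pools were analysed. In Partek Flow the authors removed poor bases from read ends, mapped to mm39 (GRCm39) by STAR and quantified Ensembl genes by expectation-maximization, and they deposited the unnormalized estimated counts. In 55.6% of the 28193 genes at least 1 value, taken as written with no tolerance, is not an integer. The estimated counts were rounded, the 22338 genes above 5 counts in all 4 libraries were tested, and SD was compared with NSD by edgeR 4.0.16 in R 4.3.3 (TMM scaling with factors from 0.965 to 1.02, quasi-likelihood test, condition as the only term, Benjamini-Hochberg adjustment over all genes tested). A gene was called below an adjusted p of 0.05 and above a fold change of 1.2, the thresholds of the study, which used DESeq2. DESeq2 1.42.0 was an alternative. CPM values are scaled with the TMM factors, with no pseudocount. Intervals are 95% intervals from the t distribution of the quasi-likelihood fit.

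Batch numbers in the labels equal the replicate numbers, so they pair NSD and SD libraries, and the batch was added as a block in an alternative fit. Across genes, libraries of 1 batch deviated together from the means of their groups (r = 0.178, on log2 CPM with a prior count of 2). Further alternatives were filterByExpr or no filter on counts, edgeR with size factors from DESeq2, a fit on protein-coding genes, other limits on the fold change, other gene lengths and each library left out in turn. The fits were also run on simulated counts with known changes and no batch effect. Those changes were larger than the estimates of the members, so the outcome, not given here, does not bear on calls of that size. The rule for named genes was all 9 members, up to 8 called genes of the pathway lists and Prkx. The members and lists were chosen with earlier results of these data known. Gene positions are those of the deposited table, with the end moved by 1 base to count from 1. GENCODE on the same build gave exon lengths, overlaps and coding sequences, and it is newer than the one the authors used, so lengths can differ from theirs. The library kit keeps the strand, and whether the counting used it is not given in the sources used here. Genes of like pattern were not sought, since 4 libraries are too few for a correlation across samples.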

Additional observations from a re-analysis of the deposited data

How the results depend on the processing

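Of the 9 members, 0 were called without the block, 1 with the replicate block and 2 with DESeq2, and 0 with size factors from DESeq2 in edgeR, without a filter on counts, with filterByExpr, protein-coding genes only, no fold change threshold, a fold change over 1.5 or any library left out. Prkar2a passed with the block (log2 fold change 0.28) and with DESeq2 (0.30), and Pkia with DESeq2 (0.28). The block changed no other call among the members. Of the 81 other pathway genes tested, 4 were called in the edgeR test, 12 with the block and 14 with DESeq2. The log2 fold change of Pkig ran from -0.048 to 0.13 with 1 library left out in turn, and that below 0 was the value without SD library 1. For the regulatory to catalytic ratio the log2 difference was -0.061 without length correction and -0.042 with the longest or the canonical transcript. For inhibitors to catalytic it was 0.047 without length correction and 0.014 with the canonical transcript. For the share of Pkia it was 0.058 with the longest transcript and 0.10 with the canonical one, against 0.03 with the union of exons, where it ran from 0.021 without SD library 2 to 0.048 without SD library 1. As a pairing check, type II to type I differed by 0.063 within batch 1 and 0.15 within batch 2, and Prkacb to Prkaca by 0.21 and 0.12. In the order of levels 5 members changed place with the longest transcript and 5 with the canonical one, an added setting. The causes of these shifts were not tested. A group reduced to 1 library was assumed to vary like the other.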
